A study of Mus musculus with 3 samples.

Results

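Epithelial cells of the choroid plexus, the tissue that secretes cerebrospinal fluid into the brain ventricles, express a characteristic set of genes, and 34 of these were followed through 3 bulk RNA-seq libraries of sorted mouse leptomeningeal cells. The genes were taken by symbol from a list of choroid plexus epithelial markers and genes of fluid secretion, and all 34 were found among the 46983 gene rows of the count table. They were chosen with their values in these libraries known, so their levels and the split described here are descriptions, and the variation test below supports nothing about them. The 3 libraries formed 1 group. Each came from the pia-enriched fraction of vehicle-treated mice, obtained by microdissection of the leptomeninges, dissociation and flow sorting. The labels name no strain, genotype, age, sex, vehicle, sorting marker or pooling. No treated or untreated group was analysed here. Nothing in the labels says that the libraries came from separate animals, so the spread between them may be technical.

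Choroid plexus epithelium is a polarised cell layer with tight junctions. It moves sodium, chloride, bicarbonate and water from blood to ventricle through pumps, cotransporters, carbonic anhydrases and channels. The same cells secrete carrier proteins and hormones into the fluid, and the homeodomain factor OTX2 is required for their development. Many of the transporters and enzymes have uses in other cells, so a symbol on the list does not by itself name the epithelium.

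Depth was 21002860 gene counts in library 1, 28704952 in library 2 and 25338616 in library 3. Levels are given as counts per 1000000 (CPM) on library sizes scaled by the trimmed mean of M values (TMM), where 3 counts, the most that a count of 0 allows, are 0.153 CPM in library 1. Intervals and floors cover counting error only, because amplified reads without molecular identifiers are not independent molecules. Library 1 stood apart from the other libraries. Its median log2(CPM + 1) over 16392 genes was 0.24 and 0.21 below those of libraries 2 and 3, mitochondrial genes took 0.918% of its gene counts against 3.60% and 3.46%, and genes of low GC content were lower in it. The labelled tissue was checked on 10 fibroblast genes. Their summed level was 42329, 41657 and 35570 CPM in the 3 libraries, with Col1a2 at 11212, 12486 and 10787 CPM and Mfap4 at 11883, 6813 and 4876 CPM, and 0 of the 10 genes was under 50% of either other library in library 1.

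Members above 1 CPM in library 2 or 3, which all 34 were, were split by their level in library 1. A gene was low in library 1 when its CPM there was under 25% of that in library 2 and of that in library 3. It was sustained when library 1 held at least 50% of both, and intermediate otherwise. This gave 11 low, 9 intermediate and 14 sustained members. Of 14809 genes of the table above the same level, 5.21% were low, 19.9% intermediate and 74.9% sustained; since the members were chosen on these values, nothing is read from the difference. The lower threshold fell between Car12, the last of the low members at 16.7% and 16.0% of libraries 2 and 3, and Steap1 just outside at 25.3% and 15.0%. At the upper threshold Otx2 lay just inside at 50.8% and 58.7%, and Spint2 just outside at 58.5% and 33.7%. Together the members held 0.586%, 0.885% and 0.983% of gene counts in libraries 1, 2 and 3. The low members alone held 0.00861%, 0.341% and 0.511%, whereas the sustained members held 0.560%, 0.487% and 0.413%. Library 1 was the lowest of the 3 in 24 of the 34 members, against 42.5% of the 14809 genes. Every member had counts in every library. Those counts do not by themselves show that the epithelium was present. Only 11 of the members were low in library 1, and which cells held the transcripts was not measured.

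**Figure D1:**
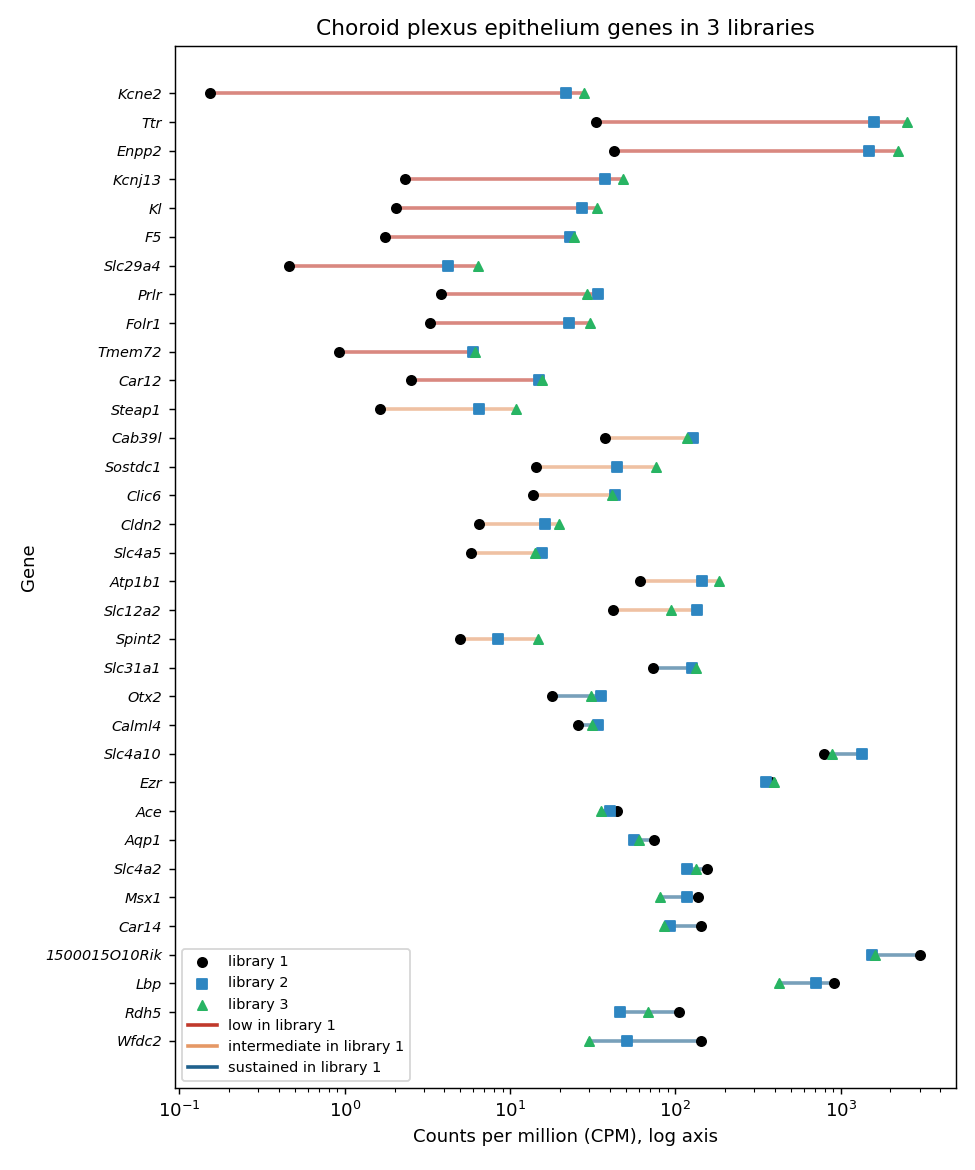
Level of each of the 34 genes in libraries 1 (circle), 2 (square) and 3 (triangle), in CPM on a log axis, with the line between the lowest and highest library coloured by class. In all 11 low genes the circle lies left of both other symbols, from 0.153 CPM for Kcne2 to 42.3 CPM for Enpp2, and in 9 of the 14 sustained genes it lies farthest right.

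The start regions of 4 transport genes are shown because they form pairs of like function: Kcne2 and Kcnj13 are potassium channel genes of the apical membrane and were both low in library 1, while of the membrane carbonic anhydrases Car12 was low and Car14 sustained. The 250 bases before each annotated start are printed 5′ to 3′ on the gene's strand from RefSeq (GRCm38.p6), with CG dinucleotides in capitals.
Kcne2: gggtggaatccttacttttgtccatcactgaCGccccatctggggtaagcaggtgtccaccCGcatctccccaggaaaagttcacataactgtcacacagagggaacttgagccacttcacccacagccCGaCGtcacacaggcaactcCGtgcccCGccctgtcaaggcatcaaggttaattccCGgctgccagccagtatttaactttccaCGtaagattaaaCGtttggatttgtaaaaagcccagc
Kcnj13: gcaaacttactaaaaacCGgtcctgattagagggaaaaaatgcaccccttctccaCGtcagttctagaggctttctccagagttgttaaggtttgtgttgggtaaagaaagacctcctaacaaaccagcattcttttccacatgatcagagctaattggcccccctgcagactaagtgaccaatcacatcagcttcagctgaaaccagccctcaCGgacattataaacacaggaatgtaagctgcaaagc
Car12: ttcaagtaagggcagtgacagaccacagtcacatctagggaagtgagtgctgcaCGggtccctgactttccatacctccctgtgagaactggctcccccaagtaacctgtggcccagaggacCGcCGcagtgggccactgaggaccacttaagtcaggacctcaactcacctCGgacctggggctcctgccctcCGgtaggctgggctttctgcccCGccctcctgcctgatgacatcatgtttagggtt
Car14: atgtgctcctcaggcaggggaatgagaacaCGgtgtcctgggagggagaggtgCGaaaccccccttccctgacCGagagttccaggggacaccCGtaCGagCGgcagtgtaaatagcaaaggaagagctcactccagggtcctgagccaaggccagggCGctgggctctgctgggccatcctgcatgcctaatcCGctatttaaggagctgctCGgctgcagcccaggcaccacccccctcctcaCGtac
These lie at chr16:92292139-92292388 on the plus strand, chr1:87394730-87394979 on the minus strand, chr9:66713436-66713685 on the plus strand and chr3:95904686-95904935 on the minus strand. They hold 9, 3, 6 and 10 CG dinucleotides in that order. Kcne2 has a second annotated start at chr16:92295366-92295615, with 1. Promoters were found for 27 of the 34 members. Per gene, as the mean over its starts, the 8 low members found had a median of 5.5 CG dinucleotides (range 3 to 16) and the 13 sustained members 10 (2.5 to 32), with 19.5 (4 to 24) in the 6 intermediate ones and 6 over all 32851 promoters. Counted per gene in the same way, the other genes of the table had medians of 7 in the low, 15 in the intermediate and 16 in the sustained class, so the median of the sustained members was under that of their class. The ranges of the 3 classes overlapped. The letters TAATCC, the core that OTX2 recognises, were searched on both strands. They stood before a start of 3 of the 13 sustained members found (Ace, Car14 and Otx2), and of 0 of the 8 low and 0 of the 6 intermediate ones. Per gene, 6.57% of the other sustained, 6.94% of the other low and 6.04% of the other intermediate genes held them. Of single promoters 6.25% did. GTTGCC, part of the motif of RFX factors, stood on either strand before a start of 1 of the 8 low, 1 of the 6 intermediate and 4 of the 13 sustained members found. Per gene, the shares in the other genes of these classes were 10.5%, 11.9% and 12.8%, and 10.4% of single promoters held it. Members with several starts were counted once, and a match describes the letters only.

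The 2 most abundant low members encode secreted proteins. Ttr, the carrier of thyroxine and of retinol-binding protein in cerebrospinal fluid, was at 33.0, 1583 and 2515 CPM in libraries 1, 2 and 3. Enpp2, which encodes autotaxin, the enzyme that makes lysophosphatidic acid, was at 42.3, 1493 and 2223 CPM. Library 1 thus held 2.08% and 1.31% of the other libraries' level of Ttr and 2.83% and 1.90% of that of Enpp2, without either gene being absent from it, at 645 and 826 counts. Kl, the ageing-related hormone and FGF23 co-receptor klotho, was at 2.05, 27.2 and 33.6 CPM, and F5, coagulation factor V, at 1.74, 23.0 and 24.5 CPM. Both were low in library 1, between 6.09% and 7.57% of the other libraries, and close to each other in libraries 2 and 3. Sostdc1, an antagonist of BMP and Wnt signals, was intermediate at 14.3, 44.1 and 76.3 CPM.

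Other secreted products were higher in library 1. The gene listed as 1500015O10Rik, now named Ecrg4, encodes the secreted peptide precursor augurin and was at 3018, 1544 and 1620 CPM. Lbp, which binds bacterial lipopolysaccharide, was at 908, 707 and 422 CPM, and Wfdc2, a small protein with whey acidic protein domains, at 144, 51.3 and 30.2 CPM. Library 1 was the highest of the 3 for each. Wfdc2 had the largest excess, at 280% of library 2 and 476% of library 3. With the trends of GC content and exon length removed, as described below, Wfdc2 was at 175% and 349%. Lbp was then at 106% and 184%, and 1500015O10Rik at 131% and 142%. Of the 8 secreted members 4 were low, 1 intermediate and 3 sustained.

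Of 5 receptors and uptake carriers, 3 were low. Folr1, the folate receptor that carries folate into cerebrospinal fluid, was at 3.27, 22.6 and 30.6 CPM, and Prlr, the prolactin receptor, at 3.84, 34.2 and 29.3 CPM. Slc29a4, a plasma membrane monoamine transporter, was at 0.460, 4.21 and 6.36 CPM, or 9, 126 and 166 counts. Library 1 was at most 14.5% of another library for these 3 genes. Steap1, a membrane protein of the STEAP family, was at 1.64, 6.48 and 10.9 CPM and fell just outside the low class. The copper importer gene Slc31a1 was the sustained one, at 72.7, 126 and 133 CPM, with library 1 still the lowest at 57.6% and 54.7% of the others. With plain library totals it was intermediate.

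Ion and water transport genes spread over the whole range. Kcne2, an accessory subunit of potassium channels, was at 0.153, 21.7 and 28.1 CPM, from 3, 651 and 733 counts. Its level in library 1 was 0.706% of that in library 2 (95% exact interval of the counts 0.145% to 2.07%), the lowest estimate of any member. The interval overlapped that of Ttr, 1.93% to 2.25%. Kcnj13, the inward rectifier Kir7.1, was at 2.30, 37.4 and 47.9 CPM, or 45, 1120 and 1249 counts. Car12 was at 2.51, 15.0 and 15.6 CPM. These 3 made up the low transport genes, and in each of them libraries 2 and 3 lay close together.

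The intermediate transport genes were Clic6, a chloride channel family protein, at 13.7, 43.0 and 41.1 CPM, and Slc4a5, a sodium bicarbonate cotransporter, at 5.83, 15.6 and 14.1 CPM. Atp1b1, a beta subunit of the sodium pump, was at 61.3, 145 and 183 CPM. Slc12a2, the sodium potassium chloride cotransporter NKCC1, was at 42.0, 135 and 94.3 CPM. Library 1 was lowest in all 4, at 31.2% to 44.5% of the others. Another 4 genes were sustained. Aqp1, the water channel of the apical membrane and a gene often used to mark this epithelium, was at 74.2, 56.5 and 60.3 CPM, and Slc4a2, the anion exchanger AE2, at 154, 118 and 133 CPM. Car14 was at 144, 92.7 and 85.3 CPM. In these 3 library 1 was the highest. Slc4a10, a sodium-dependent bicarbonate transporter, was at 792, 1344 and 890 CPM, with library 2 standing apart rather than library 1.

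Both transcription factors were sustained. Otx2 was at 18.0, 35.4 and 30.7 CPM, with library 1 the lowest, and was intermediate with plain library totals. Msx1, a homeobox factor of ectodermal and mesenchymal tissues, was at 136, 117 and 81.1 CPM, with library 1 the highest. Library 1 thus held 50.8% and 58.7% of the other libraries' level of Otx2, against 2.08% and 1.31% for Ttr.

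Of the remaining 8 members, 1 was low, 3 were intermediate and 4 sustained. Tmem72, a membrane protein of little known function, was at 0.921, 5.97 and 6.17 CPM. Cldn2, a claudin that forms cation and water pores in leaky tight junctions, was at 6.45, 16.3 and 19.9 CPM. Spint2, an inhibitor of membrane serine proteases, was at 4.96, 8.48 and 14.7 CPM, and Cab39l, a scaffold of the kinase STK11, at 37.6, 129 and 117 CPM. Library 1 was lowest in these 4. Ezr, the membrane and cytoskeleton linker ezrin, was at 381, 354 and 394 CPM (376 ± 20.4, SD, n = 3), the narrowest spread relative to its mean. Ace, the angiotensin-converting enzyme, was at 44.1, 40.2 and 35.3 CPM, and Calml4, a calmodulin-like protein, at 25.6, 34.05 and 31.5 CPM, or 75.3% and 81.4% of libraries 2 and 3 in library 1. Rdh5, a retinol dehydrogenase, was at 106, 46.1 and 68.0 CPM. For Ezr the libraries differed by little, whereas Rdh5 was highest in library 1, at 229% of library 2 and 155% of library 3. With the trends of GC content and exon length removed, Rdh5 was at 173% and 123%.

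**Figure D2:**
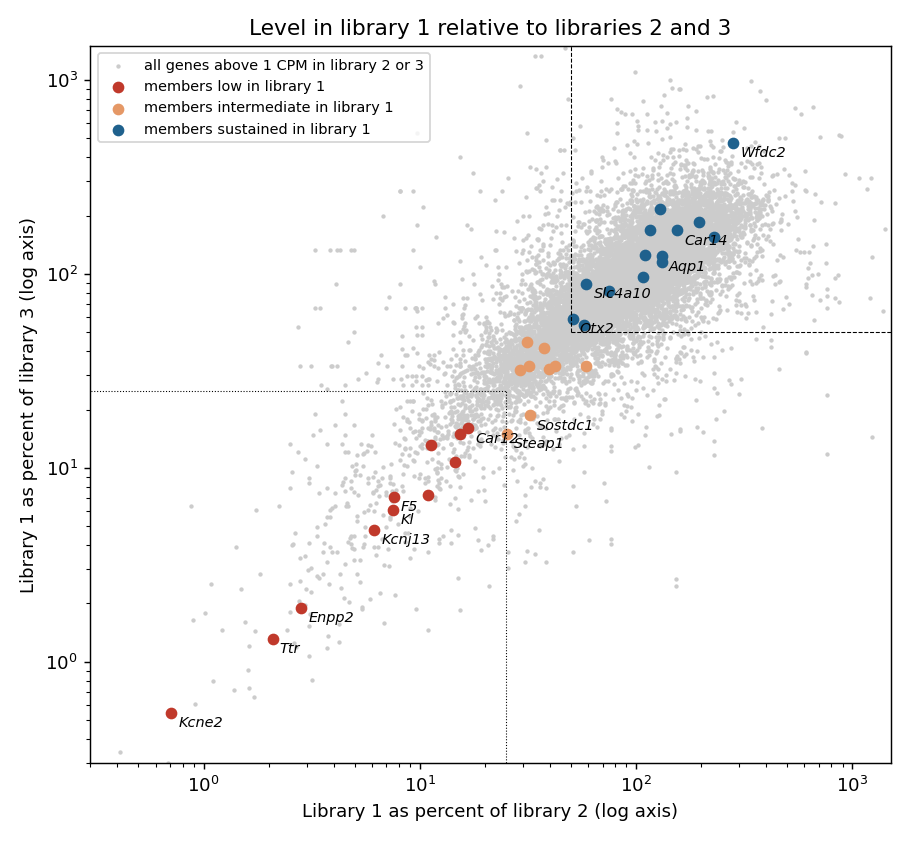
Level in library 1 as a percent of library 2 (x axis) and of library 3 (y axis), both log, for every gene above 1 CPM in library 2 or 3 with a count in each library (grey) and the 34 members (coloured by class); dotted lines mark 25% and dashed lines 50%. The members extend from Kcne2 at 0.706% and 0.546% to Wfdc2 at 280% and 476%.

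Per kilobase of exon, the scale on which genes can be compared, the highest mean levels were 2285 ± 920 CPM per kilobase (SD, n = 3) for 1500015O10Rik and 1161 ± 1057 for Ttr. Enpp2 (217 ± 192), Slc4a10 (157 ± 45.8), Lbp (141 ± 50.6) and Ezr (114 ± 6.21) followed. From Ttr to Ezr, neighbours in this order differed by less than the larger SD of the pair. The step from 1500015O10Rik to Ttr exceeded both SDs, although their values overlapped, at 1712 to 3346 and 27.8 to 2121 CPM per kilobase. That step rested on library 1: in library 2 they were at 1712 and 1335 CPM per kilobase, and in library 3 Ttr was the higher, at 2121 against 1796. Among the low genes Ttr and Enpp2 were far above Kcnj13 (23.0 ± 18.8) and Kcne2 (9.43 ± 8.29). Tmem72 had the lowest mean of all, 0.254 ± 0.173 CPM per kilobase.

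Relative to Ttr in the same library, Kcnj13 had 2.36% and 1.90% of the Ttr counts in libraries 2 and 3, and 6.98% in library 1. Kl had 1.72% and 1.33% against 6.20%, and Enpp2 94.3% and 88.4% against 128%. Kcne2 went the other way, at 1.37% and 1.12% against 0.465%, but the last value rests on 3 counts. The exact interval of Kcne2 in library 1 as a percent of library 3, 0.112% to 1.60%, holds the 1.31% of Ttr. Since Kcne2 and Ttr had the lowest relative levels in library 1 of all members, the choice of Ttr as the denominator fixes these directions. The same holds for the 9 intermediate and 14 sustained members, which all had their highest ratio in library 1.

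The ratio of library 3 to library 2 entered the classes through the condition on both libraries. Sostdc1, Steap1 and Spint2, with ratios of 1.73, 1.69 and 1.74, were intermediate because libraries 2 and 3 placed them on different sides of a threshold, so the ratios below are descriptions. The ratio in the low class ran from 0.856 for Prlr to 1.59 for Ttr, with a median of 1.28, and 10 of 11 genes were higher in library 3. Over 14809 genes the median was 0.995 and 49.4% were higher in library 3. Intermediate members ranged from 0.700 to 1.74 and sustained members from 0.589 to 1.47, the latter with a median of 0.922. The ranges of the 3 classes overlapped.

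**Figure D3:**
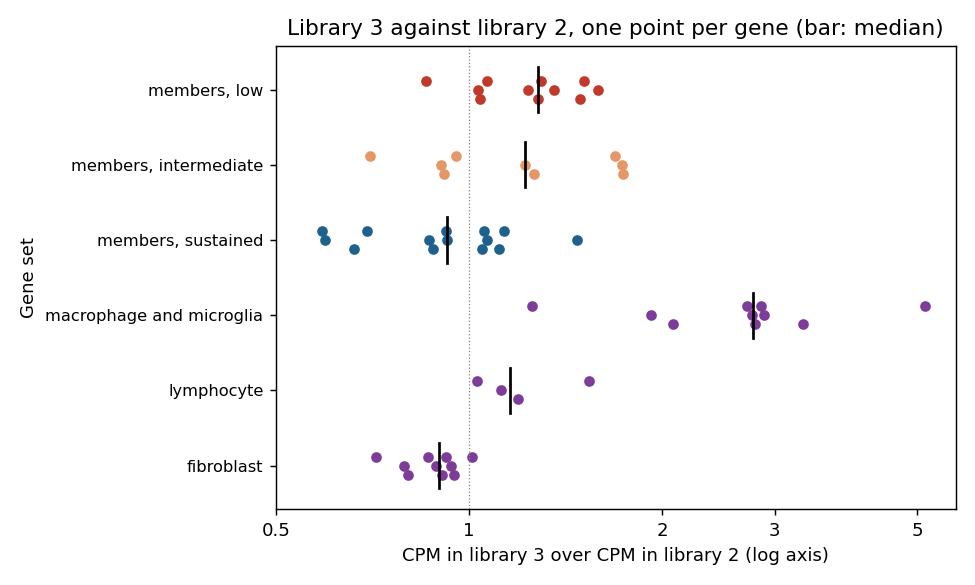
CPM in library 3 over CPM in library 2 on a log axis, 1 point per gene above 1 CPM in either, with a bar at each set's median. Low members lie between 0.856 and 1.59, below 9 of the 10 macrophage and microglia genes, which have a median of 2.78.

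Markers of macrophages and B cells were low in library 1 together with the low members. All 10 genes of a macrophage and microglia list were low in library 1, and the sum of the list was 13.9, 294 and 810 CPM. Its most abundant genes were Lyz2, at 4.40, 81.8 and 229 CPM, and C1qb, at 1.64, 38.9 and 129 CPM. In a lymphocyte list the 4 B cell genes were low and the T cell genes not classed, and the sum was 2.71, 53.4 and 61.7 CPM. Cd79a was at 1.23, 20.0 and 20.5 CPM and Cd79b at 0.819, 14.7 and 16.5 CPM, and Ms4a1 had a count of 0 in library 1. The T cell genes Cd3e and Cd3g were near the floor, with 12, 0 and 7 counts and 0, 2 and 0 counts. The low members summed to 92.5, 3267 and 4961 CPM. The ratio of library 3 to library 2 was 1.52 for that sum, 2.76 for the macrophage list and 1.15 for the lymphocyte list. All 10 macrophage genes and the 4 low lymphocyte genes were called variable by edgeR. Their part in the result was not tested, and in bulk samples fewer cells of a type cannot be told apart from less RNA per cell.

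The sums of the other cell lists were not under 25% in library 1. Ependymal cells, the ciliated lining of the ventricles next to the choroid plexus, had 1 of 8 genes low, 2 intermediate, 2 sustained and 3 not classed, the low one being Pifo at 0.665, 3.20 and 3.18 CPM. Rarres2, at 335, 120 and 124 CPM, made up most of its sum of 342, 138 and 142 CPM, and Rsph1 was at 2.61, 9.78 and 7.93 CPM. Of 7 arachnoid barrier genes 1 was low, Dpp4 at 0.819, 7.08 and 6.17 CPM, 1 was intermediate and 5 were sustained. Their sum was 344, 427 and 511 CPM, with Abcg2 at 178, 277 and 337 CPM and Abcb1a at 78.1, 79.6 and 103 CPM. Cdh1, at 8.34, 15.5 and 17.2 CPM, was also lowest in library 1. Krt19 (39.0, 19.7 and 13.5 CPM), Cldn11 (35.1, 24.9 and 32.2 CPM) and Klf5 (3.99, 2.94 and 2.22 CPM) were instead highest in it. None of the astrocyte, neuron, oligodendrocyte and Schwann, endothelial, mural or erythroid genes listed was low. The mural gene Rgs5 lay just outside, at 70.1, 271 and 369 CPM, or 25.9% and 19.0% of libraries 2 and 3, and was intermediate. Red cell genes were highest in library 1, with Hbb-bs at 514, 113 and 208 CPM and Hba-a1 at 224, 62.7 and 90.3 CPM. Epcam, Cdh16, Umod and Slc34a1, markers of other epithelia, summed to 0.819, 0.567 and 0.115 CPM.

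**Figure D4:**
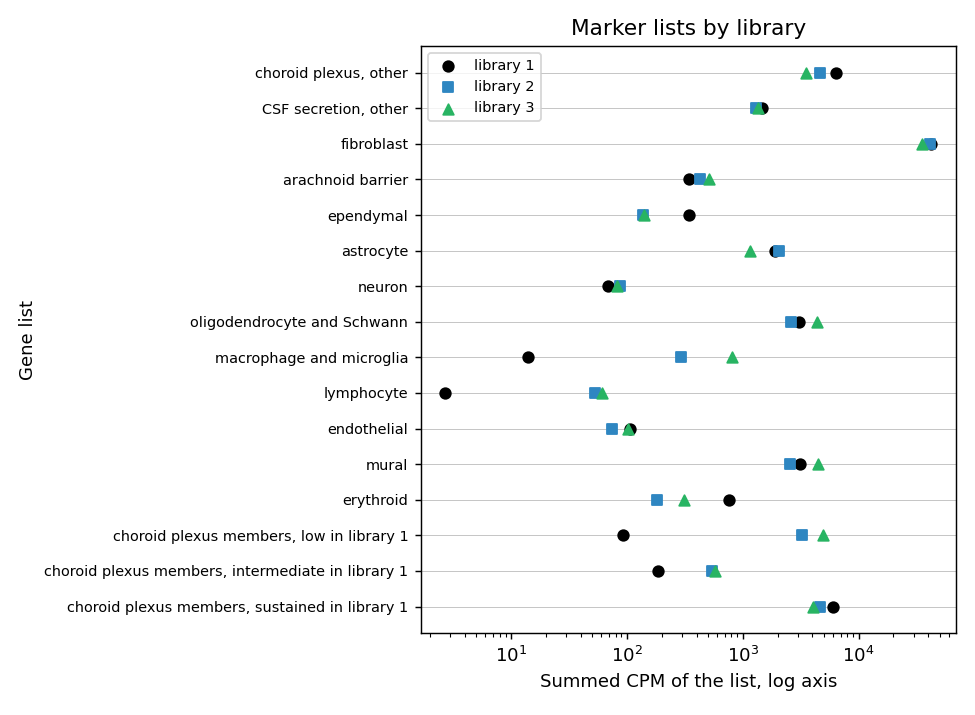
Summed CPM on a log axis of each marker list and of the 3 classes of members, in libraries 1, 2 and 3. The circle of library 1 lies far left for the macrophage and microglia list (13.9 CPM), the lymphocyte list (2.71 CPM) and the low members (92.5 CPM), and not for the fibroblast list (42329 CPM).

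Further genes of the choroid plexus, on a list of 19 that holds no member, also fell into all classes: 3 were low, 7 intermediate, 8 sustained and 1 was not classed. Vat1l was low at 4.45, 19.4 and 23.6 CPM. Slco1c1, a thyroxine transporter, was at 2.15, 23.9 and 38.1 CPM. Htr2c, the serotonin receptor that is a classical marker of this epithelium, had 0, 165 and 165 counts, so that libraries 2 and 3 were at least 35.9-fold and 41.2-fold higher than the 3 counts that a 0 allows in library 1. Slco1c1 and Htr2c were the 2 genes of the list called variable by the test below. The 2 most abundant of the list were instead sustained. Igf2 was at 5999, 4174 and 3118 CPM, and Slc13a4, a sulfate transporter, at 169, 132 and 108 CPM. Of 19 further genes of fluid secretion, 2 were low, 3 intermediate, 13 sustained and 1 not classed. The low ones were Slc4a7, a bicarbonate cotransporter, at 1.79, 11.8 and 20.0 CPM, and Car2, cytosolic carbonic anhydrase, at 12.7, 67.7 and 56.2 CPM. Fxyd1, a regulator of the sodium pump, was at 424, 147 and 223 CPM. The pump subunit Atp1b2 was at 249, 167 and 191 CPM, and the potassium chloride cotransporter Slc12a7 at 165, 229 and 174 CPM. Of the 18 that passed the filter, edgeR's test called 0, and 3 had an unadjusted p below 0.05, as had 1382 of all 16392 genes tested.

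Base composition moved with the level in library 1. In the tenth of genes with the lowest GC content (30.8% to 41.2%), library 1 had a median of 32.8% and 41.7% of libraries 2 and 3, and 19.7% of the genes were low. In the tenth with the highest (57.6% to 70.9%) these values were 145%, 128% and 0.673%. The low members had a median GC content of 46.9% (range 39.4% to 60.1%), the intermediate members 48.8% and the sustained members 53.6%. With the trends of GC content and exon length removed, 9 of the 11 low members were low again. The share of all genes above the level that was low was then 2.96%, against 5.21% before. Prlr, the member with the lowest GC content, moved to 32.9% and 27.8% of libraries 2 and 3, and Tmem72 to 26.2% and 20.4%. Their exon lengths of 15339 and 17177 bases were the longest of all members, and the effects of GC content and length were not separated. Ttr (2.14% and 1.39%), Kcnj13 (6.23% and 5.04%) and Kcne2 (1.25% and 0.963%) were among the 9. Library 1 was highest in 9 of the 14 sustained members, against 37.5% of all genes above the level, in 6 with the trends removed and in 8 with plain library totals. A gene highest in library 1 is always sustained by the definition of the class, so the closer comparison is with sustained genes only. Of all 11085 sustained genes, 5559 were highest in library 1, so no excess is read from the 9 members. With the trends removed, Aqp1, Slc4a2, Msx1 and Ace were not above both other libraries, with Aqp1 at 95.9% and 95.3%. Slc4a10 then became highest in library 1.

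**Figure D5:**
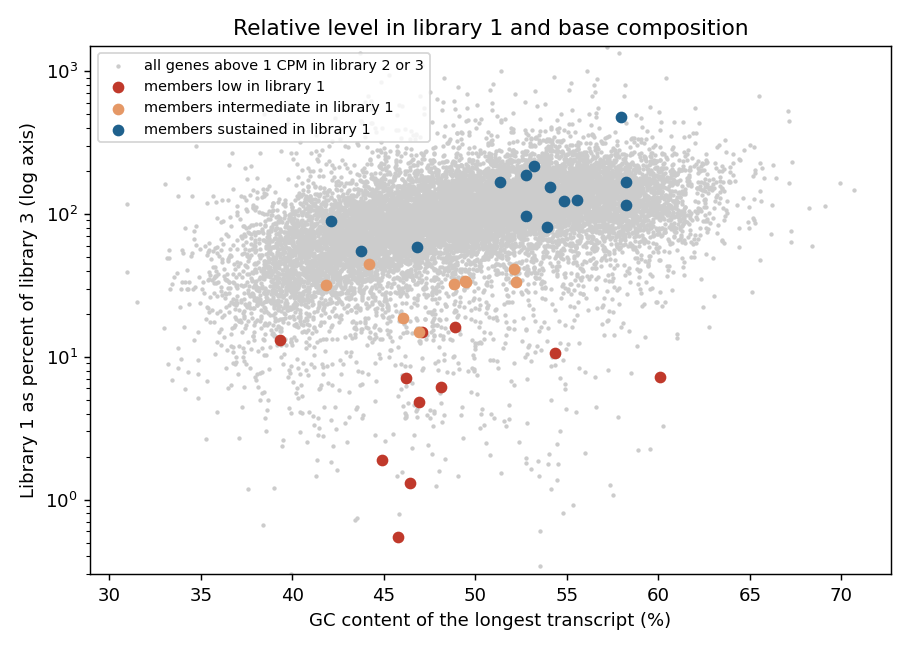
Level in library 1 as a percent of library 3 (log axis) against the GC content of the longest transcript, for every gene above 1 CPM in library 2 or 3 with a count in each library (grey) and the 34 members (coloured by class). The grey cloud rises with GC content, and low members such as Slc29a4 at 60.1% GC and Folr1 at 54.4% lie well beneath it.

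Variation between the libraries was tested over all genes in edgeR, as the misfit of a constant level under the trended dispersion, with Benjamini-Hochberg adjustment over 16392 genes and a threshold of 0.05. All 34 members passed the filter on a mean of 10 counts. The test called 1.1% of the genes, 181 in all, and among the members 8, namely Ttr, Enpp2, Kcne2, Kcnj13, Kl, F5, Prlr and Folr1, all of the low class. Since the members were chosen from this variation, nothing is read from that count. The other 3 low genes, Slc29a4, Tmem72 and Car12, were not called at their mean levels of 3.68, 4.36 and 11.1 CPM. An unadjusted value below the threshold was found for 18 members and for 1382 of the 16392 genes, and nothing is read from this either. With library 1 left out, edgeR's test called 0 of the 34 members and 69 of 16648 genes. Unadjusted values below 0.05 were then found for 1 member and for 1064 genes. The members were chosen with their levels in library 1 known, so nothing is read from this drop. Fits that leave out a library also rest on fewer libraries and on a dispersion estimated again. Without library 2 the test called 6 members, leaving out Folr1 and Prlr, and 100 of 16062 genes. Without library 3 it called 4 members, leaving out F5, Kl, Folr1 and Prlr, and 47 of 16322 genes.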

How the data were processed

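The deposited table held raw counts per gene, as whole numbers with different totals; the labels name a file of normalized counts, which was not used here. HTSeq 0.5.3, DESeq2 1.22.1 and the build mm10 are named in the submitters' processing notes. The aligner, the annotation release and the strand setting are not given in the sources used here, so overlapping and antisense genes may be split or lost. The 5 rows for reads given to no gene held 45.6%, 39.1% and 39.6% of libraries 1, 2 and 3 and were left out. Symbols came from the table. Exon length, GC content and gene positions came from GENCODE M21 (GRCm38), matched on the identifier for 46488 of 46983 rows, and promoters from RefSeq (GRCm38.p6), with the starts taken by symbol or synonym.

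Library sizes were scaled by TMM over genes with a mean of at least 10 counts, in edgeR 4.0.16 under R 4.3.3. That filter keeps genes nearly missing from 1 library. With 1 group there is no contrast, so the deviance of edgeR's intercept-only model (chi-square, 2 degrees of freedom, trended dispersion) replaced the quasi-likelihood test. Tested on simulated data for this comparison of 16392 genes, it recovered 45 of 200 genes lowered 8-fold in library 1 and 130 of 200 lowered 32-fold, so smaller differences are often missed. GC content and length trends were lowess fits (span 0.3) per library. Ratio intervals are exact (Clopper-Pearson, 95%) on the counts.

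The members, the 14 marker lists of 120 genes and the thresholds were chosen with earlier results of these data known. The rule for naming covered every member above 1 CPM in any library, the 3 most abundant genes of both further lists with those called, and the 2 most abundant genes of each other list. A gene that this rule names is not reported here. Values in the text for any other gene were chosen after they were seen.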

Additional observations from a re-analysis of the deposited data

Results flagged for a closer look

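Reads that the table gave to no gene stood outside the measurements used here and above what a count of 0 allows, at a mean of 41.4% of all reads in the table. Those not aligned were 20.1% in library 1, against 10.7% and 13.2% in libraries 2 and 3. No group had the 4 samples needed to look for outlying samples.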

How the results depend on the processing

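The number of low members (11, with 5.21% of all genes above the floor) was 7 with the low threshold at 25% divided by 2. There 2.64% of all genes were low, and Car12, Folr1, Prlr and Tmem72 left the class. At 50% it was 19, with 14.4% of all genes, and the intermediate class held 1. The number of low members was 9 to 12 with plain totals, DESeq2 size factors, trends removed or another floor, where 2.96% to 9.98% of all genes were low. It was 11 without replicate 3 and 13 without replicate 2, with 7.86% and 6.64% of all genes. The intermediate class then ranged from 7 to 8, with 11.8% to 12.9% of all genes. The sustained class ranged from 14 to 15, with 79.3% to 81.5%. With plain totals Otx2 and Slc31a1 became intermediate (12 sustained, 10 intermediate), and with trends removed Cab39l and Slc12a2 became sustained (16). Of all genes, 70.6% were sustained and 23.4% intermediate with plain totals, and 83.8% were sustained with trends removed. Without library 1 the classes are undefined. Members called variable (8, with 1.1% of all genes tested) were 5 with filterByExpr, which tests 33 of the 34 and called 57 of 14409 genes. The number ranged from 0 without replicate 1 to 6 without replicate 2, where 69 of 16648 and 100 of 16062 genes were called. The share of gene counts held by the members (0.818% ± 0.207, SD, n = 3) was 1.39% once counts were divided by exon length, and leaving out replicates in turn gave 0.735% to 0.934%. The 2 lists of other cells under 25% in library 1 were the same 2 with plain totals or medians. Library 1 was lowest in all low and intermediate members under the 4 scalings run. No paired analysis was possible because all libraries belong to 1 group. Depth limits Kcne2, Slc29a4 and Tmem72 most, which had 3, 9 and 18 counts in library 1.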

Other observations

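Further lists of cell types had no gene low in library 1. The most abundant astrocyte genes were Gja1 (1157, 1454 and 674 CPM) and Gjb6 (687, 555 and 416 CPM). The rest of that list was far lower, with Slc1a3 at 32.1, 23.9 and 38.6 CPM and Gfap at 7.88, 6.34 and 9.31 CPM. Slc1a2 was at 4.60, 7.78 and 16.5 CPM, Aldh1l1 at 3.89, 6.64 and 7.63 CPM, and Aqp4 at 0.563, 0.567 and 4.41 CPM. Gja1 and Gjb6 therefore do not by themselves show astrocytes. For neurons the most abundant genes were Snap25 (43.1, 66.8 and 58.3 CPM) and Tubb3 (13.7, 11.6 and 14.6 CPM), and for myelinating cells Pmp22 (1183, 1147 and 1594 CPM) and Mbp (1064, 777 and 1367 CPM). Endothelial cells were represented by Cdh5 (33.0, 33.6 and 20.2 CPM) and Egfl7 (27.6, 9.81 and 20.2 CPM), and mural cells by Acta2 (1394, 1147 and 2329 CPM) and Tagln (699, 381 and 886 CPM).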
